A study of Rattus norvegicus with 12 samples.

Results

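The rat miR-22 gene gives rise to 2 mature miRNAs, miR-22-3p (rno-miR-22-3p on the array) and miR-22-5p (rno-miR-22-5p), and both were among the 758 rat miRNAs on the array. They were found by name in the scanner files. The pair was selected on the scaled signal of miR-22-3p, which was lower in MI than in Sham hearts, so the difference between MI and Sham is given below as a description, with no test. The arrays measured miRNA of 12 heart samples from male Wistar rats, 4 in each of 3 groups. Sham rats were operated on without a ligature and received saline. MI rats had the left anterior descending coronary artery tied, were named the chronic heart failure group in the labels, and received saline. YQFM rats had the same ligation and received Yiqifumai Powder Injection, a botanical drug, at 5 mg/kg/day for 28 days. All injections were intraperitoneal, and RNA came from left ventricle near the infarct. The age of the rats was not given in the sources used here. Each array had its own replicate number, but no label said that each came from a separate rat, so the p-values measure the spread between these arrays.

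A miRNA guides silencing proteins to messenger RNAs that pair with its seed, the bases near its 5′ end, and it lowers the output of those messages. One arm of the hairpin precursor is usually kept in larger amounts and the other is mostly degraded. miR-22 is known as a miRNA of heart and skeletal muscle. In mouse work, raising it made cardiomyocytes enlarge and deleting it blunted the enlargement of the stressed heart, and Sirt1 and Hdac4 are among its known targets.

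The mature sequences and the hairpin are shown because the seeds and the position of the 2 arms say what was measured. They were taken from RefSeq with build GRCr8. In the mature sequences the capitals mark the seed, bases 2 to 8. In the hairpin they mark the 5p arm and then the 3p arm.
miR-22-3p: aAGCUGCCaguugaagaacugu
miR-22-5p: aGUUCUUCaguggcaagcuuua
Mir22 hairpin: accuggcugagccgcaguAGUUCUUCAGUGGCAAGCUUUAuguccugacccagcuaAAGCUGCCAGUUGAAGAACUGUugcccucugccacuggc

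The hairpin lay at chr10:60805331-60805425 on the plus strand, the 5p arm at chr10:60805349-60805370 and the 3p arm at chr10:60805387-60805408. No other gene of the annotation overlapped it, and the nearest protein-coding gene, Tlcd2, began 3965 bases after it. In the predicted fold, 21 of the 22 bases of each arm were paired. The 2 seeds differ, and of 693 rat mature miRNAs in the table, 0 others shared either one. The arms therefore belong to different seed groups.

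The array read miR-22-3p with 2 probes of unequal length and miR-22-5p with 1 probe. The probes are shown because the report compares them. They are DNA, written 5′ to 3′, and the capital marks the 1 base that the longer probe has beyond the shorter one.
miR-22-3p shorter probe: acagttcttcaactggca
miR-22-3p longer probe: acagttcttcaactggcaG
miR-22-5p probe: taaagcttgccactgaag

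The shorter probe pairs with bases 5 to 22 of miR-22-3p and the longer one with bases 4 to 22. The probe of miR-22-5p pairs with its bases 5 to 22. Each probe thus covers the 3′ part of its miRNA and 4 or 5 of the 7 seed bases. A full match was found in 0 other rat mature miRNAs of the table.

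Some facts of the whole array set touch the results. Of the 758 miRNAs, 211 to 268 were detected on an array, and 0 spots of miR-22 were saturated. Slide 1 held MI replicates 1 to 3, slide 2 held MI replicate 4 and YQFM replicate 1, and slide 3 held the 4 Sham arrays and YQFM replicates 2 to 4. MI and Sham arrays never shared a slide, and were linked only through the YQFM arrays of slides 2 and 3. One label field of MI replicate 4 named Sham, and one of Sham replicate 4 named YQFM. The title, the description and the group entry gave the groups used here. As for the tissue, 4 of 6 cardiomyocyte miRNAs, miR-1-3p, miR-133a-3p, miR-133b-3p and miR-499-5p, were detected on 12 of 12 arrays, miR-208a-3p on 1 and miR-208b-3p on 0. The liver miRNA miR-122-5p and the brain miRNAs miR-124-3p and miR-9a-5p were detected on 0 arrays.

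miR-22-3p was detected on 12 of 12 arrays, and its scaled signal was highest in Sham. Scaled signal is the background-subtracted intensity after each array was brought to a common 75th percentile. In Sham hearts it was 1810, 1646, 1781 and 1803 in replicates 1 to 4. In MI hearts it was 1317, 1124, 1226 and 1549. In YQFM hearts it was 1396, 1296, 1472 and 1518. All MI and all YQFM arrays lay below all Sham arrays, while MI and YQFM overlapped. MI replicate 4, one of the arrays with conflicting labels, was the highest of all 8 arrays of ligated rats.

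**Figure D1:**
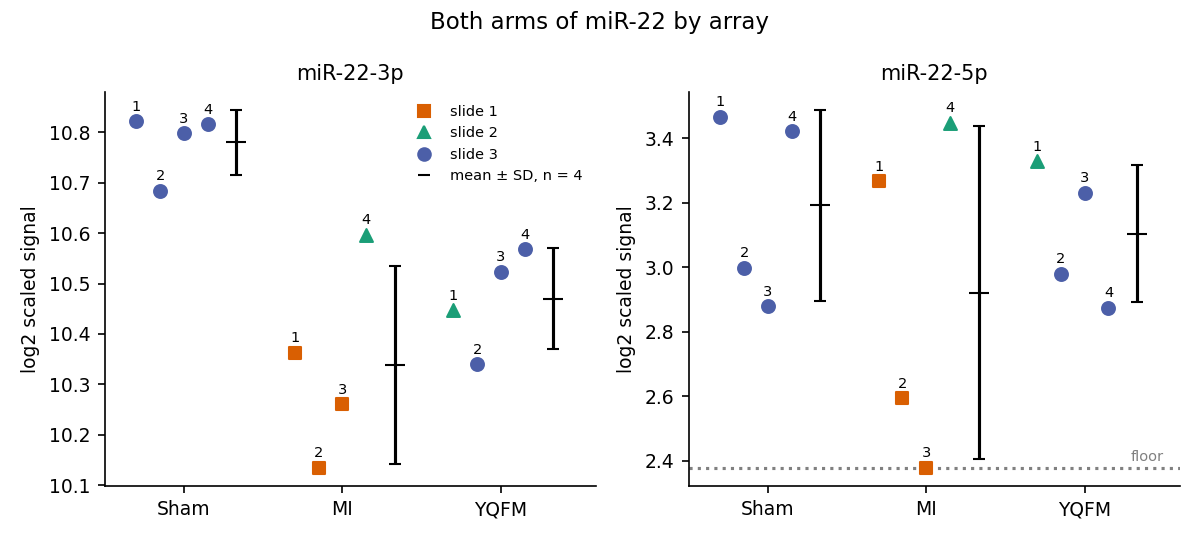
Log2 scaled signal (y axis) of miR-22-3p (left) and miR-22-5p (right) on each of the 12 arrays by group, with the replicate number at each point, symbols for the slide, and the mean ± SD of 4 arrays as a bar. For miR-22-3p every MI and YQFM point lies below every Sham point. For miR-22-5p the groups overlap, and MI replicate 3 is at the floor (dotted line).

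On the log2 scale the mean of miR-22-3p was 10.78 ± 0.06 (SD, n = 4) in Sham, 10.34 ± 0.20 (SD, n = 4) in MI and 10.47 ± 0.10 (SD, n = 4) in YQFM. The order was thus Sham, YQFM, MI. The neighbours YQFM and MI did not differ beyond their spread. MI minus Sham was -0.44 (SE 0.103) in log2 difference, or 0.736-fold. It was the 52nd lowest of 263 miRNAs tested, whose median log2 difference was -0.04. In this contrast 19 of 263 miRNAs (7.22%) passed an adjusted p of 0.05, 18 of them (6.84%) lower in MI, and 31 (11.8%) had all MI arrays below all Sham arrays. Without the 2 arrays with conflicting labels MI minus Sham was -0.52. The rule that chose miR-22-3p used this contrast, so nothing is read from its place there. In bulk tissue, fewer cells of a type and less RNA per cell cannot be told apart.

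YQFM minus MI asks whether the drug moved the level in ligated hearts. For miR-22-3p the log2 difference was 0.13 (SE 0.103), or 1.095-fold. By limma the adjusted p was 0.558 and the 95% interval ran from -0.10 to 0.36. The exact two-sided permutation test gave p = 0.286 with n = 4 in each group. A difference was not shown, and the interval holds a fall, no change and a rise. By limma 0 of 263 miRNAs (0%) passed an adjusted p of 0.05 in this comparison, 50 (19%) had an unadjusted p under 0.05, and the smallest adjusted p of any miRNA was 0.0786. With 1 array left out the log2 difference ranged from 0.063 without MI replicate 2 to 0.22 without MI replicate 4. Without the 2 arrays with conflicting labels it was 0.22, with an adjusted p of 0.169 by limma. The MI arrays also entered the choice of miR-22-3p.

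YQFM minus Sham compares treated ligated hearts with unligated ones. For miR-22-3p the log2 difference was -0.31 (SE 0.103), or 0.806-fold, and the 4 YQFM arrays lay below the 4 Sham arrays. The exact two-sided permutation test gave p = 0.0286, the smallest that 4 against 4 arrays allow. By limma the unadjusted p was 0.0120 and the adjusted p was 0.452, so it did not pass the correction over 263 miRNAs. The 95% interval was -0.54 to -0.08. By limma 0 of 263 miRNAs (0%) passed an adjusted p of 0.05, and 15 (5.7%) had an unadjusted p under 0.05. All YQFM arrays lay below all Sham arrays for 16 miRNAs (6.08%). The median log2 difference of all miRNAs tested was -0.11, and miR-22-3p was the 20th lowest. Without the 2 arrays with conflicting labels the log2 difference was -0.30, with an adjusted p of 0.463 by limma. The Sham arrays also entered the choice of miR-22-3p, and both this comparison and MI minus Sham use the same Sham arrays.

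Slide 3 alone allowed YQFM and Sham to be compared within a slide, a choice made after seeing the data. There the log2 difference of miR-22-3p was -0.30, and the 3 YQFM arrays lay below the 4 Sham arrays. The exact two-sided permutation p was 0.0571, the smallest that 3 against 4 arrays allow. On that slide 21 of 263 miRNAs (7.98%) had all YQFM arrays below all Sham arrays, and the median log2 difference over all tested was -0.13. These 7 arrays are also 7 of the 8 of the whole comparison, so the value within the slide is no separate measurement, and the Sham arrays entered the choice of miR-22-3p.

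The other comparisons changed more when the slide was considered. On slide 2 the 1 YQFM array was below the 1 MI array by a log2 difference of -0.15, opposite in sign to YQFM minus MI over all arrays. With the slide as a block, MI minus Sham was -0.15 (SE 0.188) and YQFM minus MI was -0.15. Both rest on 1 MI array, MI replicate 4, whose labels conflict, since slide 1 held no other group. With the slide as a random block, MI minus Sham was -0.34 and YQFM minus MI was 0.02. By slide, the log2 level in MI was 10.25 ± 0.11 (SD, n = 3) on slide 1 and 10.60 on slide 2, and in YQFM 10.45 on slide 2 and 10.48 ± 0.12 (SD, n = 3) on slide 3. Within MI, the slide 2 array was thus above each array of slide 1, and the part of the slide in this was not tested.

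The scaling also moved the MI values. Before scaling, miR-22-3p ranged from 1496 to 1975 in Sham, was 1346, 1013, 965 and 1903 in MI replicates 1 to 4, and ranged from 1246 to 1681 in YQFM. MI replicate 4 then overlapped Sham, and 3 of 4 MI arrays lay below all Sham arrays. The scaling factors ran from 0.814 in MI replicate 4 to 1.27 in MI replicate 3, so the MI group held both extremes. The unscaled YQFM and Sham values overlapped (exact permutation p = 0.371, n = 4 in each group). miR-22-3p was lower in MI than in Sham under every processing tried, with log2 differences from -0.53 to -0.15. YQFM minus Sham was below 0 under every processing tried, from -0.34 to -0.15. YQFM minus MI changed sign, from -0.15 to 0.32.

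**Figure D2:**
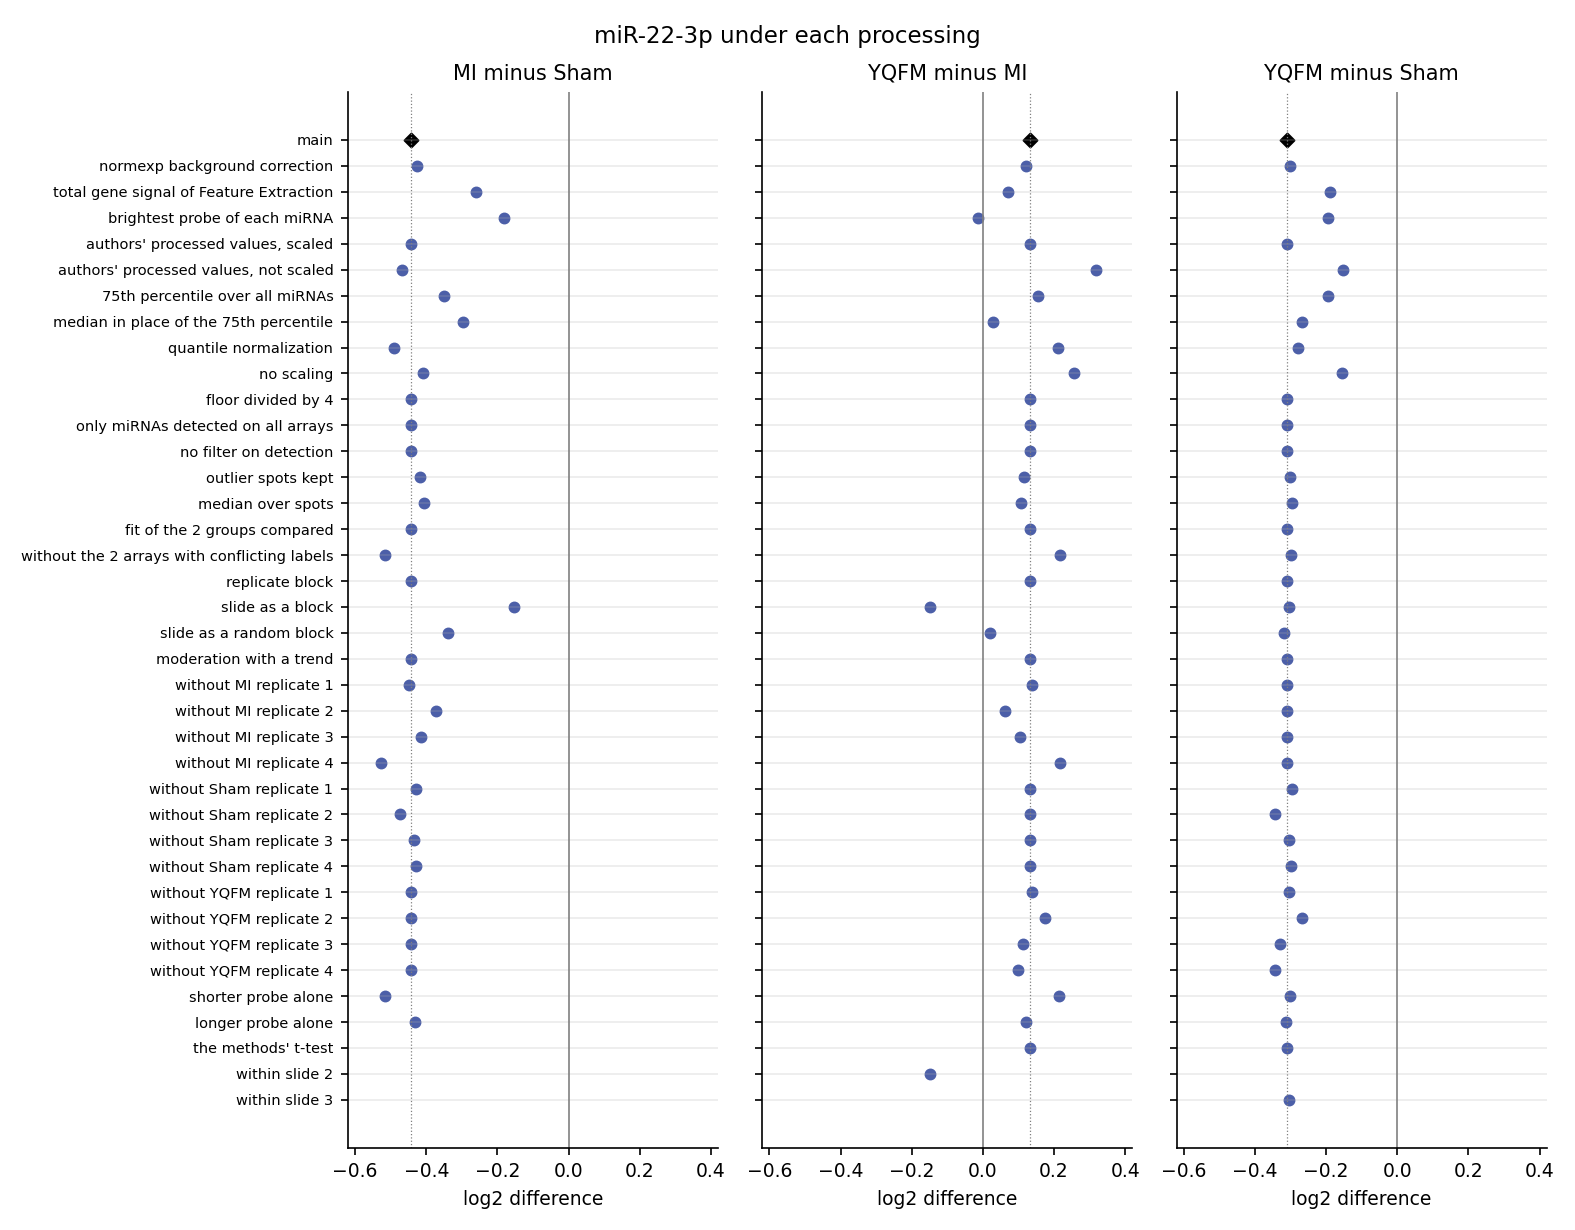
Log2 difference of miR-22-3p (x axis) in each of the 3 comparisons under every processing (one per line), with the value as reported as a black diamond and a dotted line. MI minus Sham and YQFM minus Sham stay below 0 on every line. YQFM minus MI crosses 0 with the slide as a block, within slide 2 and with the brightest probe of each miRNA. In the latter setting the arrays were rescaled on those probes. With the longer, brighter probe of miR-22-3p alone, YQFM minus MI stays above 0.

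Both probes of miR-22-3p had the order Sham, YQFM, MI. They were read in 8 printed spots each on every array, and all 89 and 91 spots used were well above background. The spots of a probe agreed within a coefficient of variation of 0.967% to 5.62% for the shorter probe and 0.968% to 6.46% for the longer one. The shorter probe had log2 scaled signals of 8.87, 8.72, 8.86 and 8.89 in Sham, of 8.27, 8.06, 8.15 and 8.79 in MI, and of 8.57, 8.39, 8.57 and 8.60 in YQFM. Its MI replicate 4 lay within the Sham range. The longer probe had 11.62, 11.49, 11.60 and 11.61 in Sham, 11.18, 10.95, 11.08 and 11.37 in MI, and 11.24, 11.14, 11.32 and 11.37 in YQFM. For it, no MI or YQFM array reached the Sham range.

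MI minus Sham was -0.51 (SE 0.143) with the shorter probe and -0.43 (SE 0.0872) with the longer one, in log2 difference. YQFM minus MI was 0.21 (SE 0.143) with the shorter probe and 0.12 (SE 0.0872) with the longer one. YQFM minus Sham was -0.30 and -0.31. The 2 probes thus differed most in the comparisons that involve MI. Both were read on the same arrays, so these standard errors do not measure the gap between the probes. The log2 ratio of the longer to the shorter probe was 2.83 ± 0.17 (SD, n = 4) in MI, 2.75 ± 0.02 (SD, n = 4) in Sham and 2.73 ± 0.05 (SD, n = 4) in YQFM. Probes of one miRNA read the same RNA and are no replicates.

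The ratio of the longer to the shorter probe on an array is free of that array's scaling, and it separated the arrays by slide. It was 7.40 to 7.64 on the 3 arrays of slide 1, 5.98 to 6.35 on the 2 arrays of slide 2 and 6.58 to 6.82 on the 7 arrays of slide 3. The slides did not overlap. On slide 3, which held 2 groups, Sham and YQFM arrays had similar log2 ratios, 2.72 to 2.77 in Sham and 2.75 to 2.77 in YQFM. On slide 2 the MI array had 2.58 and the YQFM array 2.67. MI replicate 4 was thus the lowest of all arrays, while the other MI arrays were the highest. Among 127 other miRNAs read by 2 probes of unequal length, 35 (27.6%) had all slide 1 ratios above all slide 3 ratios and 18 (14.2%) had them all below. Their median log2 shift from slide 3 to slide 1 was 0.06 and that of miR-22-3p was 0.16. A higher shift was found for 25, a count that leaves out shifts below 0 of larger size. Slide 1 held only MI arrays and slide 3 held none, so slide and group cannot be told apart in this shift. This comparison of other miRNAs was chosen after seeing the data. Its part in the difference between MI and Sham was not tested.

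**Figure D3:**
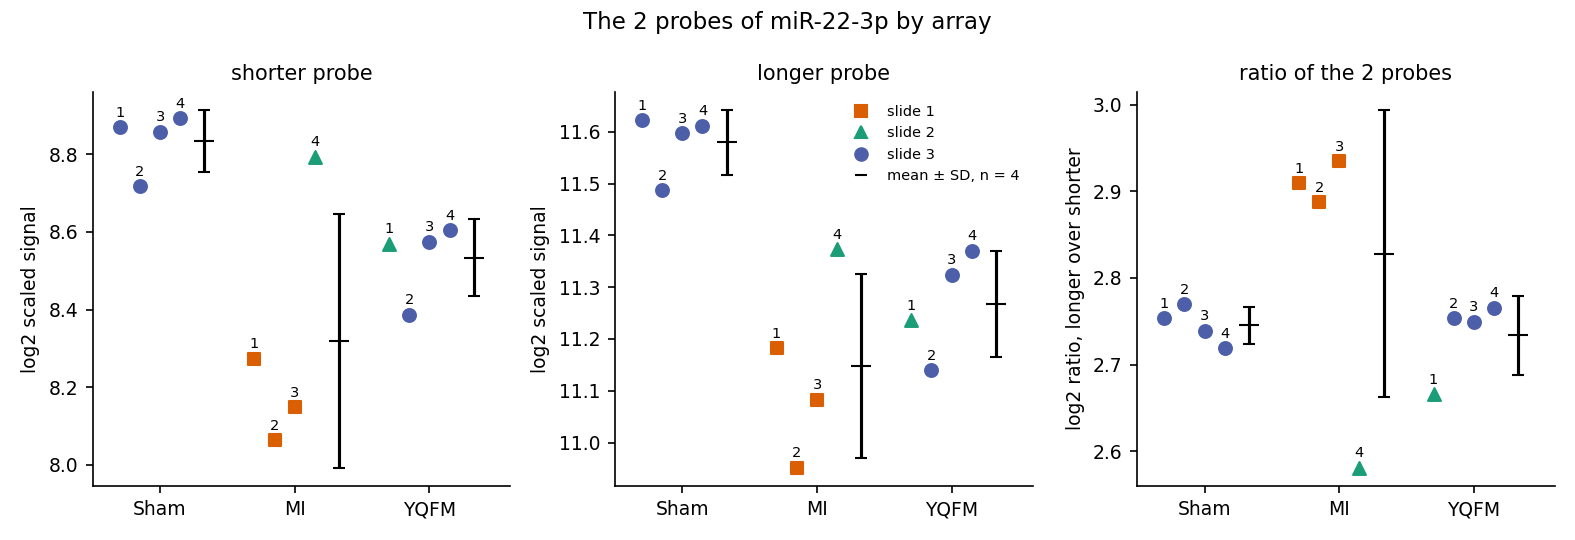
Log2 scaled signal (y axis) of the shorter (left) and longer (middle) probe of miR-22-3p and the log2 ratio of the 2 (right) on each array by group, with replicate numbers, slide symbols and mean ± SD of 4 arrays. In the right panel slide 1 arrays lie highest, slide 2 arrays lowest and slide 3 arrays between 2.72 and 2.77.

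miR-22-5p was a dim signal near the background. Its 16 spots on an array had 1.77 to 2.35 times the local background. The image software flagged 60 of 186 spots used on the 12 arrays as well above background, a call that did not follow this ratio. It counted as detected, with over 50% of spots well above background, on 3 of 12 arrays, which were Sham replicate 4, MI replicate 4 and YQFM replicate 1. It therefore had 1 detected array in each group, missed the filter of 2 and was not tested by limma. The spots varied by 8.61% to 51.3% (coefficient of variation).

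The scaled signal of miR-22-5p was 11.1, 7.99, 7.36 and 10.72 in Sham, 9.62, 6.03, 4.77 and 10.9 in MI, and 10.1, 7.89, 9.39 and 7.33 in YQFM replicates 1 to 4. The 3 groups overlapped. MI replicate 3 fell under the floor of 5.20, the lowest level readable on all arrays, and was set to it on the log2 scale. The log2 mean was 3.19 ± 0.30 (SD, n = 4) in Sham, 2.92 ± 0.52 (SD, n = 4) in MI and 3.10 ± 0.21 (SD, n = 4) in YQFM, so no neighbours in the order differed beyond their spread. MI minus Sham was -0.27 in log2 difference, with no test. YQFM minus MI was 0.18 (exact permutation p = 0.543, n = 4 in each group). YQFM minus Sham was -0.09 (exact permutation p = 0.571, n = 4 in each group). The precision was lower than for the other arm: the pooled SD between arrays was 0.36 on the log2 scale, against 0.13 for miR-22-3p. Single arrays moved the values. MI minus Sham ranged from -0.45 without MI replicate 4 to -0.089 without MI replicate 3, and was -0.16 without MI replicate 2 and -0.18 without Sham replicate 1. YQFM minus MI ranged from 0.0011 without MI replicate 3 to 0.36 without MI replicate 4, and was 0.073, 0.30 and 0.11 without MI replicate 2, MI replicate 1 and YQFM replicate 1. YQFM minus Sham ranged from -0.19 without Sham replicate 3 to 0.0037 without Sham replicate 1. Without the 2 arrays with conflicting labels the 3 log2 differences were -0.37, 0.36 and -0.01.

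The log2 ratio of miR-22-3p to miR-22-5p within an array is given as a description. Its lower term was detected on 3 of 12 arrays and stood at the floor in MI replicate 3, so it cannot show whether the 2 arms moved alike. It was 7.36, 7.69, 7.92 and 7.39 in Sham, 7.10, 7.54, 7.88 and 7.15 in MI, and 7.12, 7.36, 7.29 and 7.69 in YQFM. The groups overlapped. YQFM minus MI was -0.05, YQFM minus Sham was -0.22 and MI minus Sham was -0.17. The level of the ratio is set by different probes and says nothing on how much of each arm was present.

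The study's methods kept miRNAs by fold change, at least 4 or at most 0.25, for both Sham and YQFM over MI, and by a reverse rate, the second fold change over the first, from 1 to 2. On the scaled signal, miR-22-3p had 1.36 for Sham over MI and 1.095 for YQFM over MI. miR-22-5p had 1.21 and 1.13. All 4 were under the fold limit. The deposited table of processed values, which had no scaling between arrays, listed miR-22-5p at 0.1 in MI replicates 2 and 3 and at 0.1 on no other array. With log means of that table, the fold changes of miR-22-5p were 8.71 and 9.16, with a reverse rate of 1.05. With linear means of the same table they were 1.56 and 1.62. The 2 listed values of 0.1 thus took miR-22-5p past the limit of 4 in log means only. For miR-22-3p, which had no such value, log means gave 1.38 and 1.25, with a reverse rate of 0.901, and linear means 1.33 and 1.20.

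Of 200 other miRNAs detected on all arrays, those whose log2 signal varied most like that of miR-22-3p over the 12 arrays were miR-30e-5p (Pearson r = 0.960), miR-30d-5p (0.921), miR-149-3p (0.903), miR-19b-3p (0.892) and miR-652-5p (0.882). The median r was 0.17. The arrays share their slides and scaling, so the r values are a description. The r was taken over all 12 arrays, groups included, so a similar order of the groups was built into the choice of the 5. miR-30e-5p and miR-30d-5p have near-identical sequences, so signal of one read by the probes of the other cannot be told apart. In MI minus Sham the log2 differences of these 5 miRNAs ran from -0.56 to -0.38, in YQFM minus MI from 0.0037 to 0.25, and in YQFM minus Sham from -0.44 to -0.20. miR-22-5p was not detected on all arrays, so it had no such list.

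**Figure D4:**
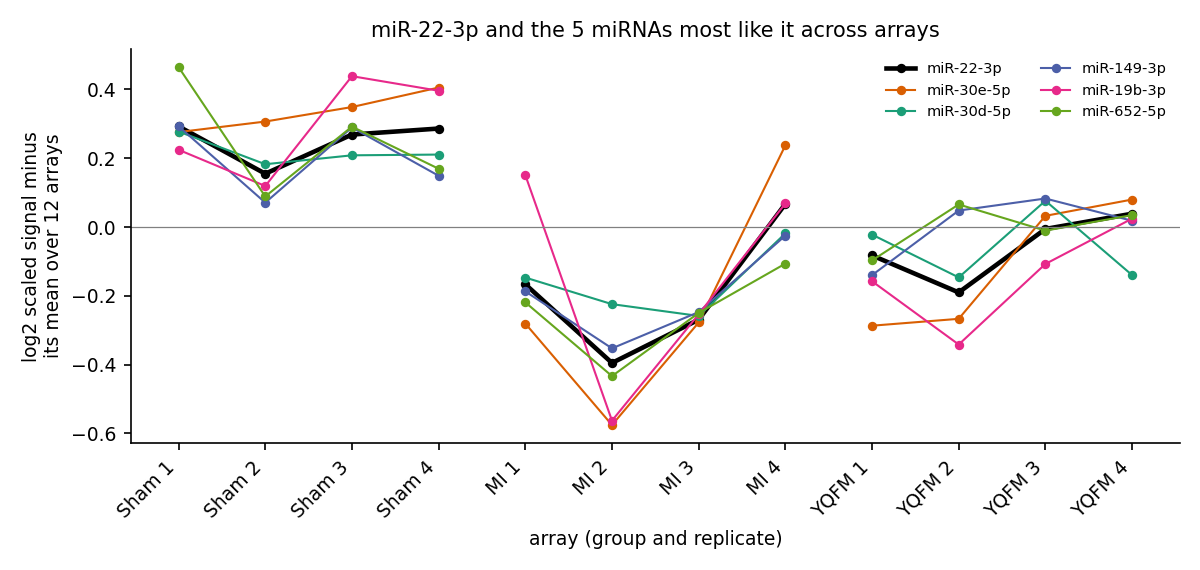
Log2 scaled signal minus its mean over 12 arrays (y axis) for miR-22-3p (black) and the 5 miRNAs most like it, on each array by group (x axis). The lines are high in Sham, low in MI replicates 1 to 3, nearer to 0 in MI replicate 4 and between these in YQFM. The 5 were chosen for likeness over these same arrays, so the shared shape follows from the choice.

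Other miRNAs linked to cardiac hypertrophy or failure were read from a list of 18, of which 17 were on the array and 14 were tested. By limma 0 of the 14 passed an adjusted p of 0.05 in any of the 3 comparisons, where 7.22% of all miRNAs tested passed in MI minus Sham and 0% in each of the others, so the count says nothing particular about the list. In MI minus Sham, 10 had a log2 difference above 0 and 4 below, with a median of 0.14 against -0.04 for all miRNAs tested. miR-30c-5p, a miRNA known to act on matrix genes, had -0.33 (SE 0.159), the lowest of the list. miR-21-5p, known from fibroblasts of the failing heart, had 0.79 (SE 0.379), the highest. The muscle miRNA miR-1-3p had -0.04 (SE 0.144) and miR-133a-3p had 0.02 (SE 0.0990). In YQFM minus MI, 5 were above 0 and 9 below, with a median of -0.14. miR-423-5p, known as a blood marker of heart failure, had -0.63 (SE 0.141, limma adjusted p = 0.0786). miR-208b-3p, a stress-linked miRNA of the cardiomyocyte, was detected on 0 arrays, and miR-208a-3p on 1.

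Cell type markers were set beside miR-22-3p. The 4 fibroblast miRNAs (miR-21-5p, miR-199a-3p, miR-199a-5p and miR-214-3p) all had log2 differences above 0 in MI minus Sham, with a median of 0.67. By limma 0 of 4 passed an adjusted p of 0.05, against 7.22% of all miRNAs tested. Their summed scaled signal was 380 to 561 in Sham, 473 to 1104 in MI and 488 to 1543 in YQFM. The 6 cardiomyocyte miRNAs summed to 10058 to 13411 in Sham, 9424 to 11796 in MI and 9217 to 11492 in YQFM, and 3 of the 4 tested were below 0 in MI minus Sham, with a median of -0.11. Of 6 leukocyte miRNAs, miR-223-3p, miR-155-5p, miR-146a-5p and miR-150-5p were detected on 12 of 12 arrays and miR-142-3p and miR-142-5p on 0. The 6 summed to 337 to 394 in Sham, 329 to 417 in MI and 334 to 403 in YQFM. Of 3 erythrocyte miRNAs, miR-486 was detected on 12 of 12 arrays, miR-451-5p on 6 and miR-144-3p on 0. The erythrocyte set summed to 206 to 258 in Sham, 170 to 219 in MI and 173 to 204 in YQFM. The 2 smooth muscle miRNAs summed to 502 to 611 in Sham, 381 to 604 in MI and 431 to 551 in YQFM, and the 2 endothelial miRNAs to 563 to 733, 707 to 941 and 575 to 712. The part of cell content in the level of miR-22-3p was not tested.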

How the data were processed

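RNA of 12 rat heart samples was labelled with Cyanine-3 and hybridised to 1-colour Agilent miRNA arrays. Per the file headers and the study's methods, the authors read the images with Agilent Feature Extraction (version 10.7.1.1 in the submitters' processing notes), and the deposited intensity values are background-subtracted signals per spot. The deposited table of processed values, also intensity, equals the software's total gene signal within 0.2% for 92.6% of values, both arms of miR-22 included, and 62.4% of its values are 0.1. The members and lists were chosen with earlier results of these data known.

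Control spots and spots flagged as outliers were left out. Spots of a probe and then probes of a miRNA were averaged. Array levels were then matched at the 75th percentile, taken over 201 miRNAs that every array detected. Values under the floor of 5.20 were raised to it, and log2 was taken. A miRNA was tested if detected on at least 2 of 4 arrays of a group (263 of 758; 471 were detected on none). limma 3.58.1 in R 4.3.3 was fitted to the 3 groups, with Benjamini-Hochberg adjustment and a threshold of 0.05, after checking on simulated data. Single values had exact two-sided permutation tests over arrays. The hairpin was folded with RNAfold 2.7.2. Genes named were the 2 arms, the 5 miRNAs most correlated with miR-22-3p, and members of the lists. The number of arrays limits the precision. Background correction, summary, scaling, filter, slide, replicate block and single arrays were varied.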

Additional observations from a re-analysis of the deposited data

Results flagged for a closer look

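With 4 arrays in a group, a value was marked as far from the rest where its gap to the nearest other array, divided by the range of the group, exceeded Dixon's 95% critical value. Chance marks about 1 in 20 groups. The shorter probe of miR-22-3p was marked in YQFM replicate 2, with a log2 scaled signal of 8.39, below the other YQFM arrays. The log2 ratio of the longer to the shorter probe was marked in MI replicate 4 at 2.58 and in YQFM replicate 1 at 2.67, both below the rest of their group. These 2 arrays were the ones on slide 2. The scaled signals of miR-22-3p and of miR-22-5p had no array marked in any group.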

How the results depend on the processing

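miR-22-3p kept the sign of MI minus Sham in 34 of 34 alternatives and of YQFM minus Sham in 36 of 36, with adjusted p from 0.316 to 1 for YQFM minus Sham, and of YQFM minus MI in 33 of 36, with adjusted p from 0.124 to 1. MI minus Sham of miR-22-3p moved to -0.26 with the total gene signal and -0.18 with the brightest probe of each miRNA. It was -0.30 with the median for the 75th percentile and -0.15 with the slide as a block. YQFM minus MI turned to -0.014 with the brightest probe and to -0.15 with the slide as a block and within slide 2. By probe, the slide block gave -0.089 (shorter) and -0.16 (longer) for MI minus Sham and -0.22 and -0.14 for YQFM minus MI. Without scaling, the longer probe had 0.24 for YQFM minus MI and -0.16 for YQFM minus Sham. The deposited table without scaling put miR-22-5p at -3.12 for MI minus Sham and 3.19 for YQFM minus MI, with 2 MI arrays at 0.1. The signs of miR-22-5p changed in 2 of 32, 5 of 33 and 7 of 33 alternatives of MI minus Sham, YQFM minus MI and YQFM minus Sham. The log2 ratio of the arms in YQFM minus MI turned to 0.10 with normexp background correction and 0.15 with the total gene signal. It ranged from -0.16 to 0.10 with 1 array left out, positive without MI replicate 3 (0.10) and YQFM replicate 1 (0.03). In YQFM minus Sham that ratio was -0.20 with the brightest probe (exact permutation p = 0.0286, against 0.257 with the mean over probes, n = 4 in each group). In that setting miR-22-5p, detected on 3 of 12 arrays only, stood at the floor of 11.24 on the Sham and YQFM arrays. The ratio there was thus miR-22-3p minus a constant, and its p says nothing on miR-22-5p. The Sham arrays also entered the choice of miR-22-3p. Except as said above, the cause of these shifts was not tested.

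The count of miRNAs called in MI minus Sham, 19 by limma, was 0 with normexp, the total gene signal, the unscaled deposited table, no scaling, the slide as a block and the slide as a random block. It was 1 with the median, 2 with the brightest probe and with quantile normalization, and 3 with the percentile over all miRNAs and with a fit of the 2 groups alone. It was 6 by the methods' t-test after Benjamini-Hochberg, 7 with only miRNAs detected on all arrays, 7 with no filter on detection (a fit in which most miRNAs sit at the floor) and 9 with the median over spots. It was 58 without the 2 arrays with conflicting labels. With 1 array left out it ranged from 4 to 62, and was 11, 4, 4 and 62 without MI replicates 1 to 4, 7, 12 and 7 without Sham replicates 1, 2 and 4, and 31 and 9 without YQFM replicates 1 and 4. In YQFM minus MI, 0 by limma, the count was 1 with the brightest probe, 2 with quantile normalization, 28 without the 2 arrays with conflicting labels, and 0 to 28 with 1 array left out, 28 without MI replicate 4 and 20 without YQFM replicate 1. In YQFM minus Sham it was 0 in all 33 alternatives. Same-numbered arrays of different groups correlated from -0.64 to 0.34 (median 0.12), with 6 of 12 pairs over 0.1. Differently numbered ones correlated from -0.61 to 0.57. Whether the numbers pair the arrays was not tested. With the replicate number as a block, the counts were 10, 0 and 0, and the adjusted p of miR-22-3p was 0.465 for YQFM minus MI and 0.466 for YQFM minus Sham. The within-slide values and the single probes were chosen after seeing the data. The low signal over background of miR-22-5p limits what its values can show.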

Other observations

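miR-6326, whose hairpin lies 142 bases before that of miR-22 on the same chromosome, was looked at after its values were seen. It was detected on 12 of 12 arrays, with a scaled signal of 27.5 ± 8.33 (SD, n = 4) in Sham, 26.3 ± 4.39 (SD, n = 4) in MI and 24.9 ± 6.57 (SD, n = 4) in YQFM. Its groups differed by less than the spread between arrays.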
